A study of Mus musculus with 4 samples.

Results

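The genes described here are 7 genes of neural-type adhesion and neurofilament proteins, Lrrn1, Lrrtm1, Cntn4, Chodl, Nefl, Nefm and Cbln1, of 22072 genes listed in the deposited tables. They were taken by name, from a list chosen by FPKM in these same libraries because most of its genes were higher in Bmp4 mutant molar mesenchyme or differed between the upper and lower molar. Their differences between genotypes and between molars are therefore a description and carry no test. The source was mesenchyme of mouse molar tooth germs at E13.5, isolated by laser capture and read by RNA sequencing. There were 4 libraries, 1 from the upper and 1 from the lower molar of each genotype, and per the series text each RNA was extracted from a pool (3 pairs). The control was Bmp4f/+, with 1 floxed allele and no Wnt1Cre named in its label, although the series title calls it wild type. The mutant was Bmp4f/f;Wnt1Cre, in which Cre expressed from a Wnt1 driver of the neural crest removes floxed Bmp4 from the crest cells that form tooth mesenchyme. All embryos were of mixed background. An effect of the Cre transgene and an effect of losing Bmp4 cannot be told apart in this design.

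Bmp4 is a secreted signal that passes between the epithelium and mesenchyme of the early molar. The proteins of the 7 genes are known best from neurons. Leucine-rich repeat proteins such as Lrrn1 and Lrrtm1, and contactins such as Cntn4, sit on the cell surface and bind partners on other cells, while neurofilament subunits such as Nefl and Nefm build the intermediate filaments of axons. Cbln1 is secreted and organises synapses, and Chodl is a membrane protein with a C-type lectin domain that is known from motor neurons and muscle.

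Levels are FPKM (a fragment count divided by transcript length and by the mapped reads of the library), summed per gene, so that levels can be compared between genes. The libraries held between 4815610 and 5545320 approximate reads on transcripts. Differences on the log2 scale were taken on log2(FPKM + 1), which makes changes of genes with low FPKM look smaller, and 10502 genes whose mean FPKM reached 1 were tested. Of the 7 genes 6 passed that filter, and Nefm, with a mean of 0.600 FPKM, did not. Folds are ratios of FPKM with exact 95% counting intervals, which cover counting error only, since amplified reads are not independent molecules. With 1 library per genotype and molar there is no replicate, and comparisons that share a library are not independent of each other. Bmp4 itself had an FPKM of 24.8 (upper) and 27.2 (lower) in the control libraries, against 4.75 (upper) and 4.90 (lower) in the mutant libraries. The tissue label was set against 10 dental mesenchyme markers, among them Msx1, Pax9, Lhx6 and Barx1, all of which were above 11 FPKM in each library.

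**Figure D1:**
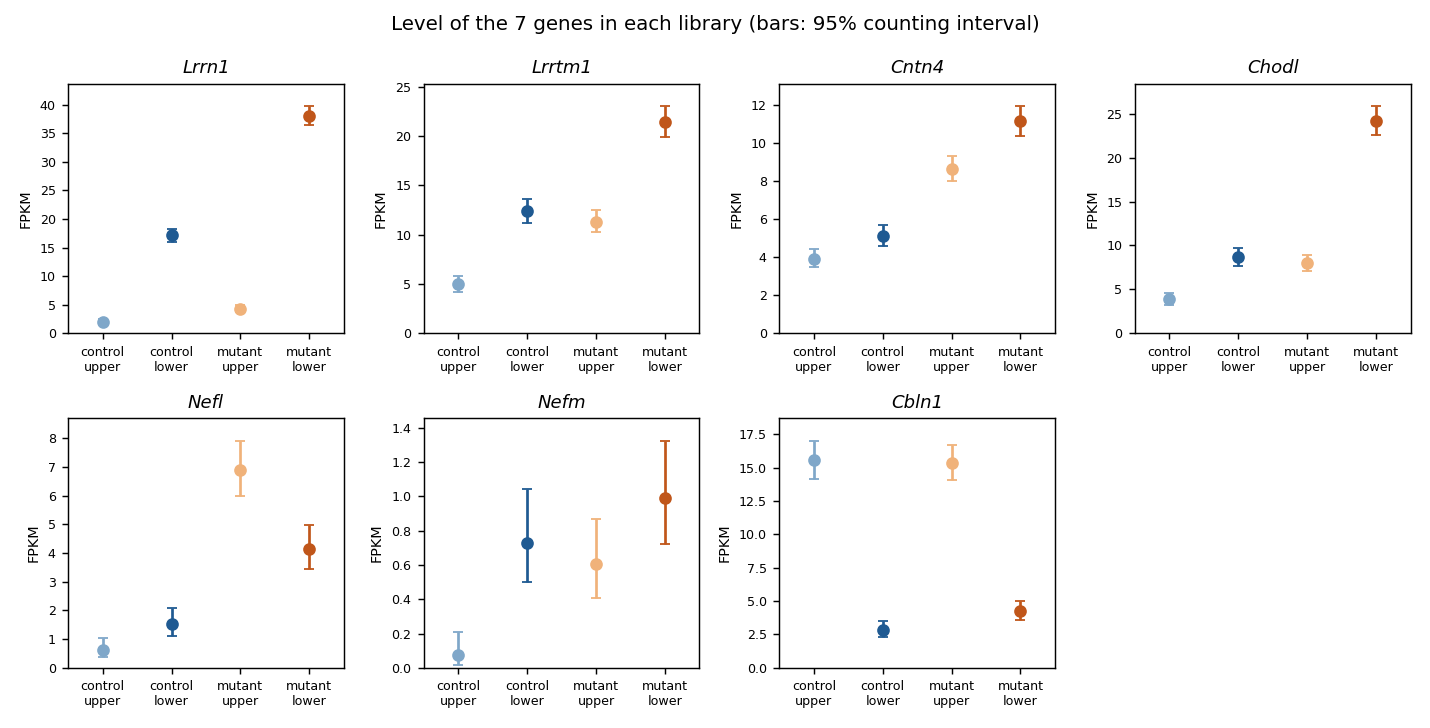
Level in FPKM (vertical axes, each starting at 0) of each of the 7 genes in the 4 libraries (horizontal axes); points are single libraries and bars are 95% counting intervals. Lrrn1, Lrrtm1 and Chodl are highest in the mutant lower molar, Nefl is highest in the mutant upper molar, and Cbln1 is near 15 FPKM in both upper molars and under 5 FPKM in both lower molars.

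The genes fell into several shapes over the 4 libraries. Lrrn1, Lrrtm1 and Chodl were higher in the mutant and higher in the lower molar, Cntn4 and Nefl were separated mainly by genotype, and Cbln1 was separated by molar. The label of the set, genes raised in the mutant, held in both molars for 6 of the 7 genes. Nefm is 1 of these 6, and its lower molar ratio of 1.36 lay within counting error (0.832 to 2.20). Cbln1 was at nearly the same level in both genotypes of the upper molar. Of all genes tested, which do not include Nefm, 27.2% were higher in the mutant in both molars. In these bulk samples, a change in the number of cells that express a gene and a change in its RNA per cell cannot be told apart.

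Among the leucine-rich repeat genes, Lrrn1, a transmembrane protein known from boundary formation in the embryonic brain, had the widest range. It lies on chromosome 6 from 107479720 to 107520222 (mm9) and is listed with 1 transcript. Its FPKM was 1.99 in the control upper library, 17.1 in the control lower library, 4.30 in the mutant upper library and 38.1 in the mutant lower library. Both lower molars were above both upper molars, while the genotypes overlapped. The lower molar exceeded the upper molar 8.60-fold in the control (6.96 to 10.7) and 8.86-fold in the mutant (7.74 to 10.2). Lrrn1 ranked 8 and 6 from the top among the 10502 genes in the log2 difference between molars in control and mutant. The mutant exceeded the control by a smaller and similar factor in each molar, 2.16-fold in the upper (1.70 to 2.76) and 2.22-fold in the lower (2.05 to 2.41). The same pair of factors, a large one for the molar and a smaller one for the genotype, thus described all 4 values.

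Lrrtm1, a synaptic leucine-rich repeat protein that binds neurexins, showed the same order with smaller steps. It lies on chromosome 6 from 77192711 to 77195511 (mm9), within the span of Ctnna2, the gene of a neural catenin. Its FPKM was 4.94 in the control upper library, 12.3 in the control lower library, 11.3 in the mutant upper library and 21.5 in the mutant lower library. The control lower and mutant upper libraries did not differ beyond their counting intervals, and the control upper library was lowest. The mutant exceeded the control 2.29-fold in the upper molar (1.91 to 2.76) and 1.74-fold in the lower molar (1.54 to 1.96). The lower molar exceeded the upper 2.50-fold in the control (2.08 to 3.02) and 1.89-fold in the mutant (1.68 to 2.14). Ctnna2 had between 0.0849 and 0.604 FPKM and was lower in both mutant libraries than in the controls, and as no strand setting is given in the sources used here, reads of the overlapping genes cannot be told apart by strand.

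Chodl, the C-type lectin gene on chromosome 16 (78931193 to 78951973, mm9), followed the order of Lrrtm1. Its FPKM was 3.84 in the control upper library, 8.68 in the control lower library, 7.95 in the mutant upper library and 24.2 in the mutant lower library. Again the control lower and mutant upper libraries had overlapping intervals, and the mutant lower library stood highest. The mutant exceeded the control 2.07-fold in the upper molar (1.68 to 2.58) and 2.79-fold in the lower molar (2.44 to 3.20). Between molars the lower exceeded the upper 2.26-fold in the control (1.83 to 2.81) and 3.05-fold in the mutant (2.67 to 3.48). Whether the molar changes the size of the genotype difference was not tested for any of these genes, since each combination has 1 library.

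Cntn4, an immunoglobulin-type adhesion protein of axons anchored to the outer membrane, separated the genotypes with little difference between molars. It spans chromosome 6 from 105627739 to 106649299 (mm9). Its FPKM was 3.92 in the control upper library, 5.13 in the control lower library, 8.63 in the mutant upper library and 11.1 in the mutant lower library. Both mutant libraries were above both controls, which was so for 18.4% of all genes tested. The mutant exceeded the control 2.20-fold in the upper molar (1.91 to 2.55) and 2.17-fold in the lower molar (1.91 to 2.48). The lower molar exceeded the upper 1.31-fold in the control (1.11 to 1.54) and 1.29-fold in the mutant (1.16 to 1.43). Cntn4 was listed with 3 RefSeq transcripts, and the longest, of 5262 bases, carried between 88.9% and 96.1% of the FPKM of the gene in each library. A shorter transcript that starts within the gene (106068759, mm9) carried between 3.94% and 11.1%, read with between 9 and 27 approximate reads. The longest transcript had an FPKM of 3.68 (upper) and 4.56 (lower) in the control and 8.29 (upper) and 10.5 (lower) in the mutant. This shorter transcript was also higher in the mutant, from 0.241 (upper) and 0.567 (lower) to 0.340 and 0.632 FPKM. The assignment of reads to overlapping transcripts was not tested.

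The neurofilament genes Nefl and Nefm are neighbours on chromosome 14, at 68701941 to 68705794 and 68737602 to 68743061 (mm9), 31.8 kb apart. Nefl, the light subunit, had an FPKM of 0.632 in the control upper library, 1.52 in the control lower library, 6.89 in the mutant upper library and 4.15 in the mutant lower library. These values rest on about 17, 40, 205 and 117 reads. Both mutant libraries were above both controls, and the order of the molars differed between genotypes. The mutant exceeded the control 10.9-fold in the upper molar (6.48 to 18.6) and 2.74-fold in the lower molar (1.88 to 3.98). In the upper molar this was the rank 8 of 10502 genes from the top in the log2 difference. Nefm, the medium subunit, was at 0.0760, 0.728, 0.604 and 0.992 FPKM in the same order of libraries, with about 3, 31, 29 and 45 reads. Its control upper library was lowest and its other 3 libraries had overlapping counting intervals. The ratio of mutant to control was 7.94 in the upper molar (2.64 to 43.7), resting on about 3 reads in the control, and 1.36 in the lower molar (0.832 to 2.20). Nefl was therefore above Nefm per length in each library. In the mutant it was at 6.89 against 0.604 FPKM in the upper and 4.15 against 0.992 FPKM in the lower molar. In the control it was at 0.632 against 0.0760 FPKM in the upper and 1.52 against 0.728 FPKM in the lower molar.

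Cbln1, the secreted synapse organiser, lies on chromosome 8 from 89992752 to 89996491 (mm9). Its FPKM was 15.5 in the control upper library, 2.87 in the control lower library, 15.4 in the mutant upper library and 4.26 in the mutant lower library. Both upper molars were above both lower molars, the opposite order to that of Lrrn1, and 21.2% of all genes tested had both lower molars below both upper molars. The upper molar exceeded the lower 5.42-fold in the control (4.32 to 6.91) and 3.61-fold in the mutant (2.99 to 4.38). The ratio of mutant to control was 0.989 in the upper molar (0.873 to 1.12) and 1.49 in the lower molar (1.13 to 1.97). Cbln1 was therefore the 1 gene of the set whose upper molar difference between genotypes lay within counting error.

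Over the set, the median difference between mutant and control was 0.89 for upper and 0.99 for lower molars (log2), against 0.02 and -0.05 over all genes tested. A log2 difference of at least 1 was reached upwards in the mutant by 2 of the 7 genes in the upper molar (Lrrtm1 and Nefl), where 0.419% of all genes tested did so. In the lower molar it was reached by 3 of the 7 (Lrrn1, Chodl and Nefl), against 0.476%. These counts depend on the pseudocount. With 0.1 in place of 1 they were 6 of 7 in the upper molar (all but Cbln1), against 1.07% of all genes, and 4 of 7 in the lower molar (Lrrn1, Cntn4, Chodl and Nefl), against 1.12%. Between molars, Lrrn1 and Lrrtm1 were past this difference upwards in the control (0.448% of all genes) and Lrrn1 and Chodl in the mutant (0.657%), while Cbln1 was past it downwards in both (0.524% and 0.619%). With the pseudocount of 0.1, Chodl, Nefl and Nefm joined Lrrn1 and Lrrtm1 in the control (5 of 7, against 0.914% of all genes), and the count in the mutant was again 2 of 7 (against 1.14%). Both lower molars were above both upper molars for 4 of the 7 genes, Lrrn1, Lrrtm1, Chodl and Nefm, as for 12.2% of all genes. All shares of genes given here are over the genes tested, which do not include Nefm, while the counts out of 7 do. The set was chosen for these differences, so its shares say nothing beyond the choice.

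**Figure D2:**
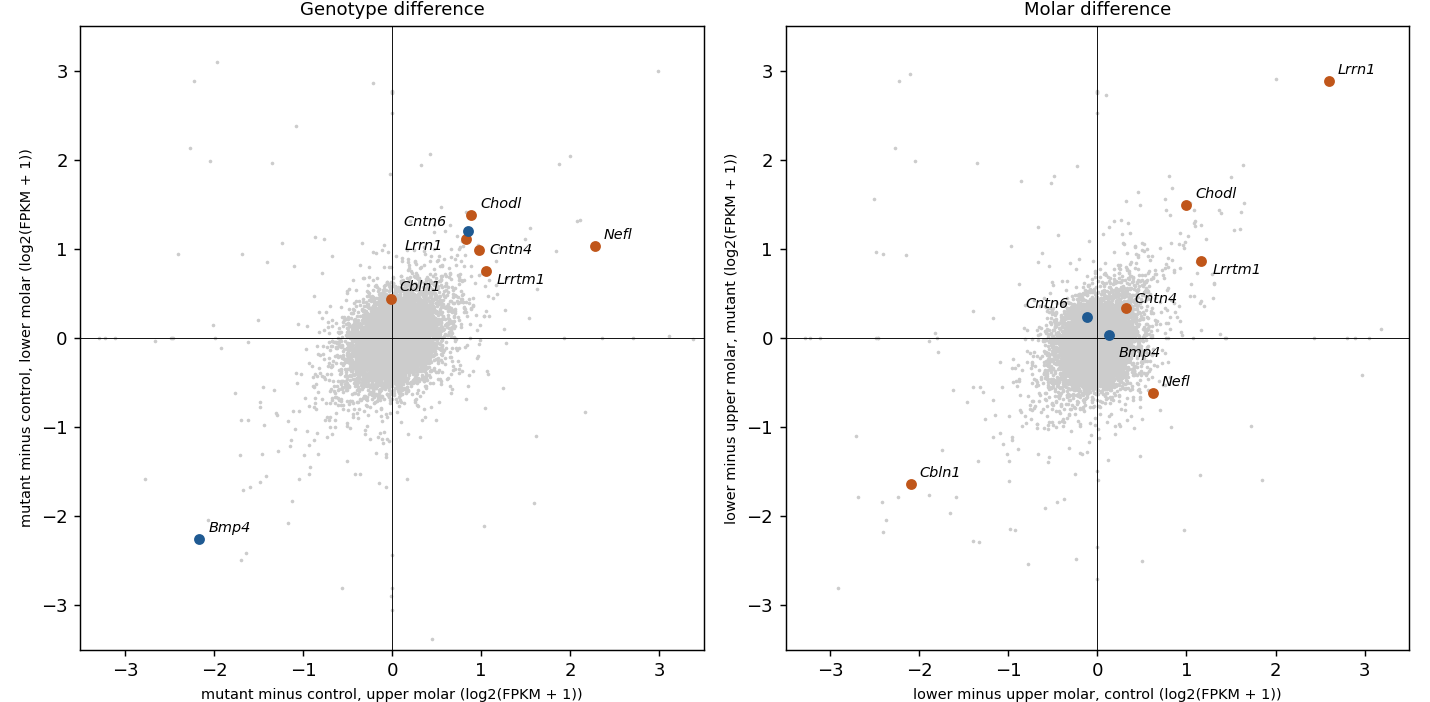
Each grey point is 1 of 10502 genes; orange points are the 6 tested genes of the set and blue points are Bmp4 and Cntn6. The left panel sets the mutant minus control difference in the upper molar (horizontal) against that in the lower molar (vertical), and the right panel the lower minus upper molar difference in control (horizontal) against mutant (vertical), all on log2(FPKM + 1). Lrrn1, Lrrtm1, Cntn4, Chodl and Nefl lie above 0 on both axes of the left panel, and Lrrn1 and Cbln1 lie at opposite corners of the right panel. The axes end at 3.5, which leaves 10 genes out of the left panel and 8 out of the right.

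The position of the genes was not used to choose them. Cntn4 and Lrrn1 are 830 kb apart on chromosome 6 with Il5ra, Trnt1 and Crbn between them. On the other side, 814 kb from Cntn4, lies Cntn6, another contactin, which was not in the set. Cntn6 (104443038 to 104813399, mm9) had an FPKM of 2.72 in the control upper library, 2.43 in the control lower library, 5.72 in the mutant upper library and 6.90 in the mutant lower library. Both mutant libraries were above both controls, and the molars of a genotype were close to each other. Fitted over all genes by limma with genotype and molar as terms, Cntn6 rose in the mutant by 1.03 ± 0.13 (log2, SE, limma adjusted p = 0.028), a call in this direction made for 0.343% of the genes tested. This p-value sets the genotype difference against the disagreement between molars and does not measure the spread between embryos. It is not stated whether upper and lower molars were taken from shared embryos; if they were, the pair of libraries of each genotype is not independent. The call was lost after rescaling between libraries (limma adjusted p = 0.067). It was also lost when the molar term was dropped with all 4 libraries kept (limma adjusted p = 0.17). Fits with any 1 library left out also lacked the molar term, so they mix genotype and molar. Their effect was 0.91 to 1.14.

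The genes around Cntn6, Cntn4 and Lrrn1 were read in the same way. Crbn, the substrate receptor of a ubiquitin ligase, was between 2.29 and 2.66 FPKM in the 4 libraries (limma adjusted p = 0.99 for genotype). Trnt1, a tRNA-processing enzyme added after its values were seen, was between 3.41 and 4.97 FPKM (limma adjusted p = 0.66). Il5ra, a cytokine receptor subunit 11.1 kb from Cntn4, was at or under 0.332 FPKM, Chl1, the adhesion gene next to Cntn6, at or under 0.246 FPKM, and Setmar, beyond Lrrn1, between 0.566 and 0.969 FPKM. Next to the other genes of the set, N4bp1, on the left of Cbln1, was between 8.84 and 10.4 FPKM, and Dock5, on the left of Nefl, between 0.448 and 0.839 FPKM. D16Ertd472e, on the left of Chodl, was between 4.09 and 5.94 FPKM, and Tmprss15, on its right, was at or under 0.0848 FPKM.

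**Figure D3:**
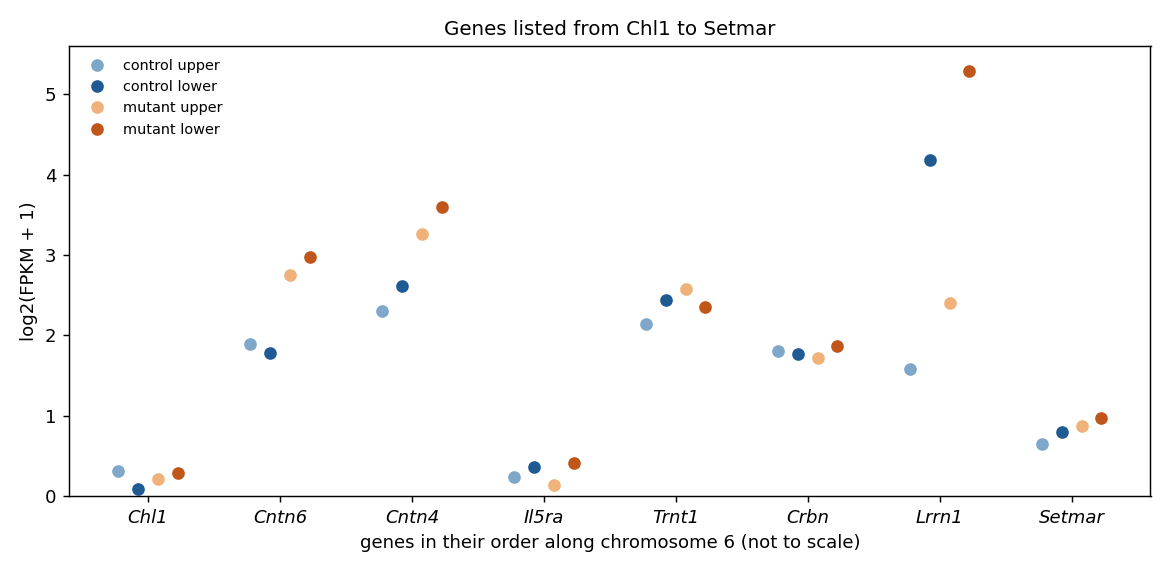
Level on log2(FPKM + 1) (vertical axis) of 8 genes in their order along chromosome 6 (horizontal axis, not to scale), with 1 point per library. Both mutant libraries lie above both controls for Cntn6 and Cntn4, Lrrn1 is split first by molar, and the 4 points of Crbn lie close together.

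Sequences before the start of transcription were looked up for the genes that were higher in both mutant molars, to set their letters side by side. RefSeq promoter windows (GRCm38.p6, a later build than the mm9 of the deposited tables) were found for 4 of the 7 genes, and up to 250 bases before the start are printed. The Lrrn1 window, which ends at the start of the gene, is chr6:107529476-107529725, that of Lrrtm1 is chr6:77242227-77242476, that of Chodl, cut at the RefSeq gene start, is chr16:78930698-78930840, and that of Cntn4 is chr6:106118515-106118764, all on the plus strand. The Cntn4 window belongs to a start within the gene, whose RefSeq record begins at 105677632 on GRCm38.p6, and not to the start of the longest transcript. The Lrrtm1 window also belongs to a start within its RefSeq record, which begins at 77229210 on GRCm38.p6. Lrrtm1 was listed with 1 transcript on mm9, whose start was not mapped to this build. A second Cntn4 window (chr6:106118692-106118941, GRCm38.p6), which overlaps the first and is not printed, holds the motif CTTTGAT once. Capitals mark the only match in the printed windows to the motifs that were searched.
Lrrn1: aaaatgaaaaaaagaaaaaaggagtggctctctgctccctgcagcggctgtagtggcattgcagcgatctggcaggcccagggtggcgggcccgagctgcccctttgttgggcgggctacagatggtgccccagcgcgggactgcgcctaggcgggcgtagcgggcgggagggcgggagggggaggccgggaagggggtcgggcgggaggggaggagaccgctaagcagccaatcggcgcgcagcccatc
Lrrtm1: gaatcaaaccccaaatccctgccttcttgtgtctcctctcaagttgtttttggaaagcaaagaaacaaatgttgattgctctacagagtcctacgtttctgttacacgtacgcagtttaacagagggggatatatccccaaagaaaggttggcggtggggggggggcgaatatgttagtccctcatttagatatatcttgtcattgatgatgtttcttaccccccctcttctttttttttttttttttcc
Chodl: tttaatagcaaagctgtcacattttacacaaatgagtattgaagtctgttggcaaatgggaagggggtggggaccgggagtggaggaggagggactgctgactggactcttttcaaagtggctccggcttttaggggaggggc
Cntn4: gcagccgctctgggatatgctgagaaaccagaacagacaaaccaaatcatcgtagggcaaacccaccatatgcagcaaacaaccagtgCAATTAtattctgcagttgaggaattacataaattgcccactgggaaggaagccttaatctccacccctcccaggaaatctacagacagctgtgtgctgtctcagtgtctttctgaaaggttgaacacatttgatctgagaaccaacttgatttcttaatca

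The printed windows differed in base composition and shared none of the searched motifs. The share of G and C was 68.0% for Lrrn1, 42.0% for Lrrtm1, 51.0% for Chodl and 44.4% for Cntn4, against a median of 52.4% over 32851 windows of all genes. On both strands, 4 motifs were searched, GGCGCC (a GC-rich site of the Smad type), TAATTG (a homeobox site of the Msx type), CTTTGAT (a Lef/Tcf site) and TCAGCACC (the left part of the REST element, which silences neural genes). They were present in 9.59%, 7.17%, 3.21% and 1.32% of all windows. The only match in the printed sequences was TAATTG, read as CAATTA, in the Cntn4 window, and it overlapped no other motif. A match or its lack describes these letters and says nothing about binding.

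Relatives and partners of the 7 genes were examined from lists of families. In the leucine-rich repeat adhesion family, 15 of 27 other members were tested. limma called 0 of them for genotype, with 3 at an unadjusted p under 0.05. Over all genes tested, 0.8% were called and 13.2% had such a p. The median effect in the list was 0.15, against -0.02 over all genes. Between molars limma called 2 of the 15, both lower in the lower molar (0.333% of all genes), and 9 of the 15 had an unadjusted p under 0.05, against 10.2% of all genes. Lrrtm4, a paralog of Lrrtm1, had an FPKM of 9.89 in the control upper library, 5.43 in the control lower library, 11.1 in the mutant upper library and 6.16 in the mutant lower library. It fell by 0.76 ± 0.11 from upper to lower molar (log2, SE, limma adjusted p = 0.037), the opposite direction to Lrrtm1. Slitrk5, a neural membrane protein, was at 4.18, 1.30, 3.89 and 1.26 FPKM in the same order and was lower in the lower molar, with an effect of -1.14 ± 0.13 (log2, SE, limma adjusted p = 0.015). Neither molar call remained when the genotype term was dropped with all 4 libraries kept (limma adjusted p = 0.21 for Lrrtm4 and 0.065 for Slitrk5). With any 1 library left out, in fits that also lacked the genotype term, the effects were -0.84 to -0.68 and -1.18 to -1.10. The call of Lrrtm4 was also lost after rescaling (limma adjusted p = 0.061). The best expressed members, Flrt3 and Flrt2, were at 16.5 to 25.5 FPKM and 8.12 to 13.6 FPKM and were not called for genotype (limma adjusted p = 0.38 and 0.18).

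Among contactins, the L1 and NCAM families and contactin partners, 11 of 23 listed genes were tested. limma called Cntn6 higher in the mutant and 0 genes lower (0.457% of all genes were called lower), with 8 at an unadjusted p under 0.05 (13.2% of all genes), and the median effect was -0.10. Cntn3, also on chromosome 6, had an FPKM of 2.35 (upper) and 2.50 (lower) in the control and 4.06 (upper) and 3.45 (lower) in the mutant (limma adjusted p = 0.21). Cntn1 had an FPKM of 2.53 (upper) and 4.29 (lower) in the control and 2.15 (upper) and 1.44 (lower) in the mutant (limma adjusted p = 0.31). The contactins with tested levels thus differed in sign, with Cntn3 and Cntn6 higher and Cntn1 lower in both mutant molars. Aplp2 and App, a known partner of Cntn4, and Ncam1 were the best expressed genes of this list and were not called (limma adjusted p = 0.21, 0.24 and 0.36). App had an FPKM of 19.6 (upper) and 17.9 (lower) in the control and 16.3 (upper) and 11.9 (lower) in the mutant. Between molars limma called 1 of the 11, Ncam2, an adhesion protein of olfactory axons, which was at 1.02, 2.56, 1.61 and 5.81 FPKM in control upper, control lower, mutant upper and mutant lower. Ncam2 rose from upper to lower molar by 1.10 ± 0.17 (log2, SE, limma adjusted p = 0.0496), where 0.39% of all genes were called in this direction. That call was lost after rescaling (limma adjusted p = 0.11). It was also lost when the genotype term was dropped with all 4 libraries kept (limma adjusted p = 0.65). Fits with 1 library left out also lacked the genotype term. In these the effect of Ncam2 was 0.63 without the mutant lower library and 1.57 without the control lower library.

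Other intermediate filament genes were read beside Nefl. Of 8 listed, 2 were tested, Vim, the filament protein of mesenchymal cells, and Nes, and limma called 0 of them for genotype or molar, with 0 and 1 at an unadjusted p under 0.05 (over all genes 0.724% were called for molar). Vim was between 101 and 120 FPKM and Nes between 3.75 and 5.09 FPKM. The further neuronal filament genes were near or at 0. Nefh, the heavy neurofilament subunit, was at or under 0.0865 FPKM, Ina at or under 0.137 FPKM, and Prph, the filament gene of peripheral neurons, was listed at 0 in each library.

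For Cbln1, relatives and binding partners were listed as 15 genes, of which 5 were tested. limma called 0 of them for genotype or molar, with 0 and 1 at an unadjusted p under 0.05. The 1 gene was Cbln4, a paralog, with an FPKM of 3.61 in the control upper library, 0.676 in the control lower library, 3.09 in the mutant upper library and 1.49 in the mutant lower library. Like Cbln1 it was higher in both upper molars, by a log2 difference between molars of -1.09 ± 0.19 (lower minus upper, SE), which was not called (limma adjusted p = 0.085). Nlgn2, a neuroligin, was the best expressed gene of this list, at 13.7 to 14.8 FPKM.

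Since the 7 genes are known from neurons, markers of neurons and of other cells that a capture could hold were read beside them. Of 20 neuron markers in the tables, 16 were under 1 FPKM in every library, and Pou4f1 and Chga were listed at 0 in each. Tubb3, the neuronal tubulin, had an FPKM of at least 0.817 in each control library. It was lower in the mutant, at 0.0858 (upper) and 0.399 (lower), which rest on about 2 and 10 reads. Dcx went the other way, from 0.866 (upper) and 0.181 (lower) FPKM in the control to 1.16 and 0.251 FPKM in the mutant. Of the 20 markers 4 were higher in both mutant libraries than in the control of the same molar, 4 were lower in both, and 12 were neither. Over all genes tested, which leave out most of these markers, 27.2% were higher in the mutant in both molars. Elavl4 was between 0.177 and 0.421 FPKM, Stmn2 between 0.0754 and 0.403 FPKM, and Snap25 at or under 0.497 FPKM. The summed FPKM of the list was 19.2 (upper) and 12.8 (lower) in the control and 20.5 (upper) and 11.9 (lower) in the mutant, so it was split by molar and not by genotype. Most of this sum was Gap43, a growth cone protein, at 11.3, 6.72, 13.6 and 6.46 FPKM in the same order, which limma called lower in the lower molar (effect -0.82, adjusted p = 0.044) and not for genotype (adjusted p = 0.78). The molar call of Gap43 was lost after rescaling (limma adjusted p = 0.061). It was also lost when the genotype term was dropped with all 4 libraries kept (limma adjusted p = 0.17). With 1 library left out and no genotype term, its effect was -0.94 to -0.70.

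Markers of other cell types ranged from low to well expressed, and the endothelial sum was lower in both mutant libraries. All 10 markers of peripheral glia were under 1 FPKM in every library, with a summed FPKM of 2.74 (upper) and 2.21 (lower) in the control and 1.99 (upper) and 2.66 (lower) in the mutant. The 11 skeletal muscle markers had a summed FPKM of 4.46 (upper) and 4.08 (lower) in the control and 4.77 (upper) and 4.29 (lower) in the mutant, and the muscle regulators Myod1, Myog and Myf5 were at or under 0.131 FPKM. Epithelial markers summed to an FPKM of 21.9 (upper) and 22.2 (lower) in the control and 24.2 (upper) and 22.7 (lower) in the mutant. The 8 endothelial markers summed to 43.4 (upper) and 40.4 (lower) in the control and 31.2 (upper) and 36.9 (lower) in the mutant, below both controls, and macrophage and red cell markers lay between 8.15 and 10.9 FPKM. Of the glia markers 0 reached the level needed for a test. In the other lists 2 muscle, 4 epithelial, 8 endothelial and 3 macrophage and red cell markers were tested, and limma called 0 of them for genotype or molar. At an unadjusted p under 0.05 were 1 endothelial marker for genotype, and 3 epithelial markers and 1 macrophage or red cell marker for molar. Of the 10 dental mesenchyme markers limma called 1 for genotype, Osr2, from 35.1 and 45.2 FPKM to 56.0 and 85.8 FPKM (adjusted p = 0.039), a call lost after rescaling (adjusted p = 0.067) and when any 1 library was left out (adjusted p from 0.15 to 0.97, with an effect of 0.48 without the mutant lower library, against 0.78 with it). Over all genes tested, 0.343% were called higher in the mutant. Between molars limma called 0 of these 10 markers. At an unadjusted p under 0.05 were 6 of the 10 for genotype and 8 for molar, against 13.2% and 10.2% of all genes. The part of other cell types in the levels of the 7 genes was not tested.

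**Figure D4:**
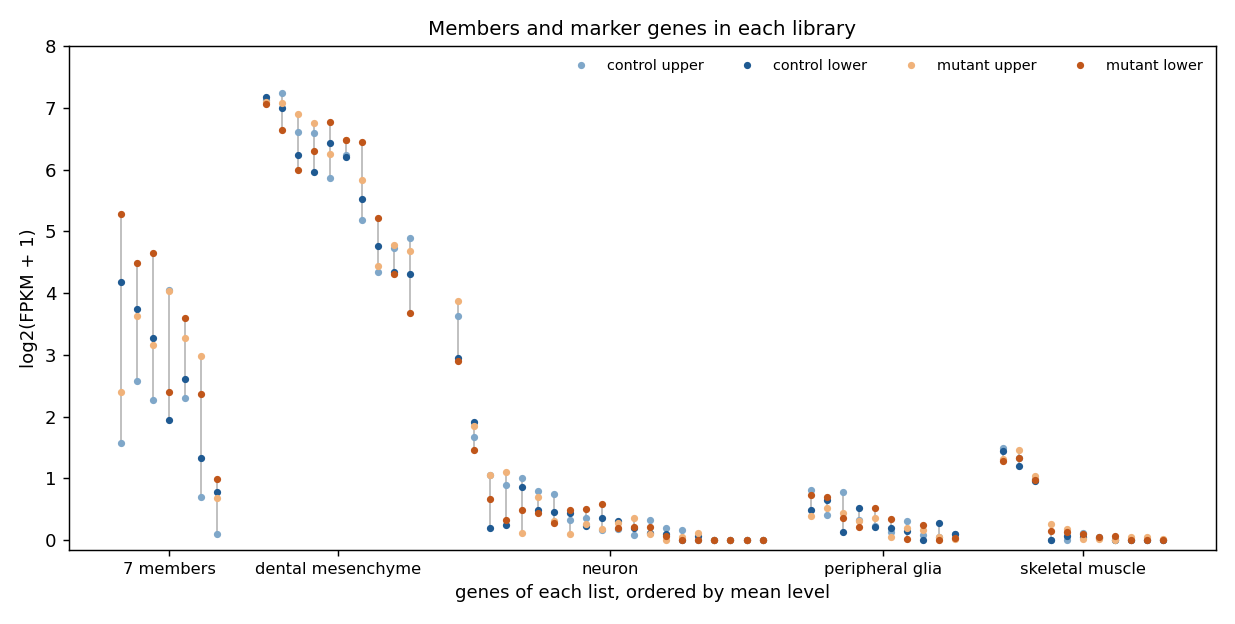
Level on log2(FPKM + 1) (vertical axis) of the 7 genes and of marker genes of 4 cell types, ordered by mean within each list (horizontal axis); each point is 1 library and grey lines join the libraries of a gene. The 7 genes lie below most dental mesenchyme markers, and all but a few neuron, glia and muscle markers lie under 1 on this scale.

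The genes most like each of the set were taken over all genes tested, as the 2 with the smallest distance between their log2(FPKM + 1) values in the 4 libraries after centring each gene on its own mean. For Lrrn1 these were Cxcl14, a chemokine, at 0.444, 4.81, 0.354 and 9.13 FPKM in control upper, control lower, mutant upper and mutant lower (distance 0.74), and Dkk2, a secreted Wnt modulator, at 2.61, 10.2, 4.41 and 19.7 FPKM (distance 0.98). Both were higher in the lower molars, but Cxcl14 was not higher in the mutant upper molar. Nbl1, a secreted BMP antagonist, was among the 2 nearest genes of both Lrrtm1 (distance 0.22) and Chodl (distance 0.34), at 1.10, 3.10, 3.08 and 7.44 FPKM. The other gene near Chodl was Tbx15, a transcription factor, at 3.00, 7.96, 6.07 and 16.1 FPKM (distance 0.32), and that near Lrrtm1 was Mir3471-1, a microRNA precursor whose short length makes its FPKM uncertain (distance 0.14). For Cntn4 they were Msmp, at 0.440, 0.592, 1.44 and 2.24 FPKM, and Cpe, a peptide-processing carboxypeptidase, at 6.85, 7.53, 13.3 and 18.3 FPKM (both at a distance of 0.16). Nefl was nearest to Gdf7, a ligand of the BMP family, at 1.98, 2.98, 11.9 and 8.95 FPKM (distance 0.24), and to Crabp2, a retinoic acid binding protein (distance 0.58). Cbln1 was nearest to 2900092D14Rik, at 9.90, 1.31, 9.75 and 2.13 FPKM (distance 0.14), and to the microRNA precursor Mir1306 (distance 0.33). Within the set the closest pair was Lrrtm1 and Chodl (distance 0.51) and the farthest was Lrrn1 and Cbln1 (distance 4.67). These distances rest on 4 libraries and describe levels only.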

How the data were processed

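RNA sequencing of 4 laser-captured pools, 1 per genotype and molar, was analysed from the deposited transcript tables. The submitters' processing notes name TopHat 1.4.1, Bowtie 0.12.7 and mm9; for strand setting and Cufflinks version, nothing is given in the sources used here. The authors gave FPKM, normalised to mapped reads, and the deposited coverage signal of each transcript, per the file headers. FPKM was summed per gene symbol. Coverage times length, divided by 44.2 bases per read (the mean over libraries of the median total between 25 and 60 bases, taken as 1 read, in genes with 1 transcript of over 1000 bases), gave approximate reads. Starts were raised by 1 base to count from 1, after a check on 3284 transcripts without introns.

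limma 3.58.1 in R 4.3.3 was fitted on log2(FPKM + 1) (pseudocount 1) (terms: genotype plus molar; variance trend on intensity) over 10502 genes whose mean FPKM reached 1, two-sided, with Benjamini-Hochberg adjustment at 0.05. It leaves 1 residual degree of freedom beside 5.77 of the prior, and the code was tested on simulated data. Whole reads could not be recovered from FPKM, and no count test was run. The genes, families, marker lists and motifs were chosen with earlier results of these data known. Named genes were Bmp4, the 7 genes, listed genes called by limma or among the 4 best expressed of a list, the nearest and overlapping genes on mm9, and the 2 nearest genes by profile. Others named beside them (Cntn1, Cntn3, Cbln4, Nefh, Ina, Prph, Trnt1 and single markers) were chosen after their values were seen. The alternatives were another pseudocount, rescaling, filters, left-out short transcripts, terms, trend and libraries. Fits with a library left out kept only the term of interest, genotype or molar.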

Additional observations from a re-analysis of the deposited data

Results flagged for a closer look

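Bmp4, the 7 genes and the 6 list genes called by limma were examined for signs. For 4 of these genes a difference had opposite signs in the 2 arms in which it was measured, and the difference between the arms was not tested. Nefl was 0.62 higher in the lower than in the upper molar of the control and -0.62 lower minus upper in the mutant (log2). Cbln1 differed between mutant and control by -0.015 in the upper and by 0.44 in the lower molar, the first of which is within counting error. Cntn6 differed between lower and upper molar by -0.12 in the control and by 0.23 in the mutant. The control value rests on about 128 (upper) and 114 (lower) reads. Gap43 differed between mutant and control by 0.25 in the upper and by -0.050 in the lower molar. The lower molar value rests on about 114 (control) and 118 (mutant) reads. No counting interval was computed for Cntn6 or Gap43, so these small differences may lie within counting error.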

How the results depend on the processing

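None of the 28 log2 differences of the 7 genes (4 comparisons each) changed sign after rescaling by median ratios, and none moved by more than the mean arm of its counting interval. Leaving out transcripts under 300 bases left all 28 as they were, since the transcripts of these genes are longer. A pseudocount of 0.1 cannot change a sign, as it is added to both values. With it, 3 of the differences moved by more than that arm, by at most 0.98. These were Nefl for genotype in the upper molar and Lrrn1 for molar in both genotypes. The shift with this pseudocount was 1.55 for Nefm between molars of the control, within its wide interval. limma called 84 genes for genotype and 76 for molar. For genotype this became 14 after rescaling, 133 without short transcripts, 146 where the mean FPKM had to reach 5, 38 with no trend on intensity, 7 when the molar term was dropped, and 5 to 18 with 1 library left out. For molar it became 139 without short transcripts, 127 where the mean FPKM had to reach 5, 12 when the genotype term was dropped, and 0 to 21 with 1 library left out (0 without the mutant lower library, with 407 genes at an unadjusted p under 0.05). Without a filter on low values limma called 0 genes for either, with 1398 and 1225 at an unadjusted p under 0.05. Fewer or more genes tested, or fewer terms, is part of these settings. Beyond that the cause was not tested. Fits with 1 library left out also lacked the other term. They left 1 library in 1 group, so their counts are not given.

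Past a log2 difference of 1 were 106 genes for genotype in the upper molar, 115 in the lower molar, and 102 and 134 between molars in control and mutant. With a pseudocount of 0.1 these were 223, 249, 208 and 263, and with the stricter filter they were 35, 45, 36 and 50. Without short transcripts the first 3 were 63, 70 and 62. Without a filter, genotype in the lower molar had 175 and molar in the control 156. Of the 6 list genes called, each was called in 2 to 4 of its 10 or 11 alternatives. Of these alternatives, 4 left out a library together with the other term. A level of 3 reads on a transcript of 2 kb is 0.101 to 0.115 FPKM, which limits Nefm in the control upper molar. No analysis paired by embryo was possible, because each genotype and molar has 1 pooled library.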
